A study of Rattus norvegicus with 24 samples.

Results

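The transcripts of 10 ligands of the transforming growth factor beta superfamily were followed in rat kidney after ischemia and reperfusion. They were chosen by gene symbol in the probe annotation: the TGF-beta isoforms Tgfb1, Tgfb2 and Tgfb3, the bone morphogenetic proteins Bmp2, Bmp4, Bmp6 and Bmp7, the activin subunits Inhba and Inhbb, and the stress-linked ligand Gdf15. Of the 13337 gene symbols in the annotation, these 10 accounted for 9, through 10 probes, since no probe was paired with Bmp7. Probes above background on at least 3 of the 24 arrays were kept, which left 7 of the ligands among 9799 genes.

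Kidney cortex or kidney medulla came from Wistar rats 3 months old. One pair of groups was sham; in the other 6 groups both kidneys had been made ischemic for 20 min and were sampled after 6, 24 or 120 h of reperfusion. RNA was hybridised to Illumina bead arrays, 3 per region and time. Each region was a bulk piece of tissue, in which fewer cells of a type and less RNA per cell cannot be told apart. The labels do not say whether arrays of a group came from separate rats, and the p-values then reflect only how these arrays varied, which may be technical spread.

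TGF-beta ligands are secreted in a latent form, held in the matrix by latent TGF-beta binding proteins and released by integrins or proteases. They signal through pairs of type I and type II receptor kinases that phosphorylate Smad2 and Smad3, and in kidney TGF-beta is best known for driving matrix production by fibroblasts after injury. BMPs use related receptors and Smad1, Smad5 and Smad9, are held back by antagonists such as chordin, gremlin and noggin, and in kidney are known for roles in nephron development and for opposing fibrosis. Activins, dimers of inhibin beta subunits, are bound by follistatin. GDF15 is a distant relative that cells secrete under stress.

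Arrays had median intensities of 67.3 to 98.1 and detected 49.6% to 56.4% of 22523 probes. Among the sham arrays, 1 stood apart from its label by correlation. Sham medulla replicate 1 correlated more closely with the sham cortex arrays (mean r = 0.979) than with the other sham medulla arrays (0.968). Its summed level of the inner medulla markers Slc14a2 and Aqp4 was 125 normalized intensity units, against 3450 and 4130 on replicates 2 and 3. Its summed level of 6 measured proximal tubule markers was 29200, against 6970 and 16800 there and 37300 to 42200 in sham cortex. Distal convoluted tubule markers, 2 of 4 measured, summed to 3340, 676 and 2810 on sham medulla replicates 1, 2 and 3. Podocyte markers, 4 of 6 measured, summed there to 3290, 2090 and 3890. Sham medulla without replicate 1 thus still includes replicate 3, whose levels of both lists were above those of replicate 2. Inner medulla markers were uneven in cortex too. They summed to 390, 55.8 and 57.3 on sham cortex replicates 1, 2 and 3, and to 51, 596 and 91 in cortex at 120 h. Replicate 2 at 120 h also had the highest macrophage and fibroblast sums of its group, 5000 and 5770. The Tgfb1 call in cortex at 120 h without sham cortex replicate 1 or this array is given below. For medulla results below, values without replicate 1 are added where a call is lost without it or a value of Gdf15 depends on it.

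Promoter sequences are shown for the 3 ligands that passed a test against sham. RefSeq's promoter table held an entry for 8 of the 10 ligands. The windows are the 250 bases upstream of the start given for each in RefSeq (build GRCr8), 5′ to 3′ on the gene's strand, with motif matches in capitals. Tgfb1 lies on chromosome 1 from 90324312 to 90340627, on the plus strand, and its window is chr1:90324062-90324311.
Tgfb1: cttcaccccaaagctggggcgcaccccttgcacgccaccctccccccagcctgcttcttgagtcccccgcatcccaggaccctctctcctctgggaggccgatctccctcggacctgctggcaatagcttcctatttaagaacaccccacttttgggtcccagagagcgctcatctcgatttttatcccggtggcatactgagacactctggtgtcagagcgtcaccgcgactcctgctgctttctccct
Tgfb2 lies on chromosome 13 from 100691540 to 100793227, on the minus strand. Its window is chr13:100792686-100792935, at a start inside the outer limit of the annotated gene.
Tgfb2: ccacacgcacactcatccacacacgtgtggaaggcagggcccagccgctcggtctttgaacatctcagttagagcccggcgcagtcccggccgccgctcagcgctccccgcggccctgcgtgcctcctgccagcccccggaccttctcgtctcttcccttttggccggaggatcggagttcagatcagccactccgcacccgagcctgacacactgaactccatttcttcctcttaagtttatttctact
Gdf15 lies on chromosome 16 from 18838436 to 18842022, on the plus strand. The table held 2 starts for it. The window of the downstream start, chr16:18839015-18839264, is shown because it is the one that held matches. It lies inside the limits of the annotated gene.
Gdf15: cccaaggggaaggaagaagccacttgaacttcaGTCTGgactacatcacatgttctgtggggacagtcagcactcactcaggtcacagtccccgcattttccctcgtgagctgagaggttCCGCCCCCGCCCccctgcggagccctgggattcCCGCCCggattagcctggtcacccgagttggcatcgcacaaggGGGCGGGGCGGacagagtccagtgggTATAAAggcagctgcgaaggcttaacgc
The letters searched on both strands were TGANTCA for AP-1, TGACGTCA for CRE or ATF, TGATGNAA for a composite of ATF4 and C/EBP, CAGAC for Smad proteins, GGGCGG for a GC box and TATAAA for a TATA box. Overlapping matches were counted separately. Of 33465 RefSeq promoter windows of the same length, 6.34%, 1.59%, 3.4%, 42.9%, 30.5% and 12.9% held them, in that order. The Tgfb1 and Tgfb2 windows held 0 matches to any of them, as did the window of the upstream Gdf15 start, chr16:18838186-18838435. The downstream Gdf15 window held 5 overlapping or separate GC boxes, 1 Smad match and 1 TATA match at -28 from the start. These are matches of letters only.

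Tgfb1 rose in medulla at all 3 times after ischemia, and in cortex at 120 h only among the 3 times tested there. It encodes the most studied TGF-beta isoform. Values below are normalized intensities on the log2 scale, in the order of replicates 1, 2 and 3. In sham medulla Tgfb1 read 7.39, 7.47 and 7.95. It read 8.44, 8.51 and 8.83 at 6 h, 8.34, 8.26 and 8.57 at 24 h, and 8.98, 9.12 and 9.11 at 120 h. All 9 injured medulla arrays lay above the 3 sham arrays, and the 120 h arrays lay above the other 6. The differences from sham medulla were 0.99 ± 0.23 at 6 h, 0.79 ± 0.23 at 24 h and 1.47 ± 0.23 at 120 h (log2, SE, n = 3 arrays a group), or 1.98-fold, 1.73-fold and 2.77-fold. Their adjusted p-values from limma, over all 14390 probes kept, were 0.00256, 0.0121 and 0.000692. Without sham medulla replicate 1 the 24 h difference was 0.68 and no longer passed (limma adjusted p = 0.0606), nor did it without replicate 3 of medulla at 24 h (0.70, adjusted p = 0.0573).

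In cortex Tgfb1 read 7.16, 7.55 and 7.33 in sham rats, 7.56, 7.58 and 7.25 at 6 h, and 7.78, 6.90 and 7.86 at 24 h. Those groups overlapped one another. At 120 h it read 7.99, 8.59 and 7.99, with every array above sham. The differences from sham cortex were 0.11 ± 0.23, 0.16 ± 0.23 and 0.84 ± 0.23, of which the last passed (1.79-fold, limma adjusted p = 0.0345). That call was lost without sham cortex replicate 1 (0.75, adjusted p = 0.149) or replicate 3 (0.83, adjusted p = 0.0783). It was also lost without replicate 2 of cortex at 120 h (0.64, adjusted p = 0.202). These were among 9 of 38 alternatives that lost it. Others were median scaling (adjusted p = 0.0552), no filter on dim probes (0.0504), the cortex arrays alone (0.104) and only the groups compared (0.08).

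Tgfb2, the isoform that needs betaglycan for efficient receptor binding, rose in medulla at 6 and 120 h. Its sham medulla arrays read 6.74, 6.21 and 6.70. At 6 h it read 7.95, 7.09 and 9.02, at 24 h 7.29, 7.38 and 7.72, and at 120 h 8.43, 8.88 and 8.46. All injured medulla arrays again lay above sham, and the 6 h arrays spread most widely (mean 8.02 ± 0.97, SD, n = 3). The differences were 1.47 ± 0.38 at 6 h (2.77-fold, limma adjusted p = 0.00631), 0.91 ± 0.38 at 24 h (adjusted p = 0.0761) and 2.04 ± 0.38 at 120 h (4.11-fold, adjusted p = 0.0025). The 6 h call depended on replicate 3 of that group, without which the difference was 0.97 (adjusted p = 0.0505). It was lost in 4 of 38 alternatives, among them fitting only the groups compared (adjusted p = 0.0624). The 24 h difference passed in 4 of 38 alternatives. These were fitting only the groups compared (adjusted p = 0.0205), array weights (0.0205), and leaving out medulla replicate 2 or 3 at 6 h (0.04 and 0.0335).

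In cortex Tgfb2 read 7.27, 6.69 and 7.08 in sham rats, 6.37, 6.91 and 6.60 at 6 h, 7.07, 6.10 and 6.19 at 24 h, and 7.06, 8.35 and 8.04 at 120 h. Each injured cortex group overlapped sham. The differences were -0.39, -0.56 and 0.80 (each ± 0.38), and limma's adjusted p-values of 0.523, 0.313 and 0.247 did not pass.

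Tgfb3 was near background, above it on 20 of 24 arrays, with raw intensities of 62.2 to 126.5. Its normalized level lay between 4.68 and 6.19 on all arrays. Its largest difference from sham among the 6 tested was 0.58 ± 0.23 in cortex at 6 h (limma adjusted p = 0.0825), where replicate 2 at 6.19 lay well above the other arrays at 5.12 and 5.33. Without that replicate the difference was 0.26 (adjusted p = 0.494). It passed without replicate 1 of that group (0.81, adjusted p = 0.0317) and with array weights (0.76, adjusted p = 0.0313), as did the cortex difference at 24 h with array weights (0.67, adjusted p = 0.00944).

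**Figure D1:**
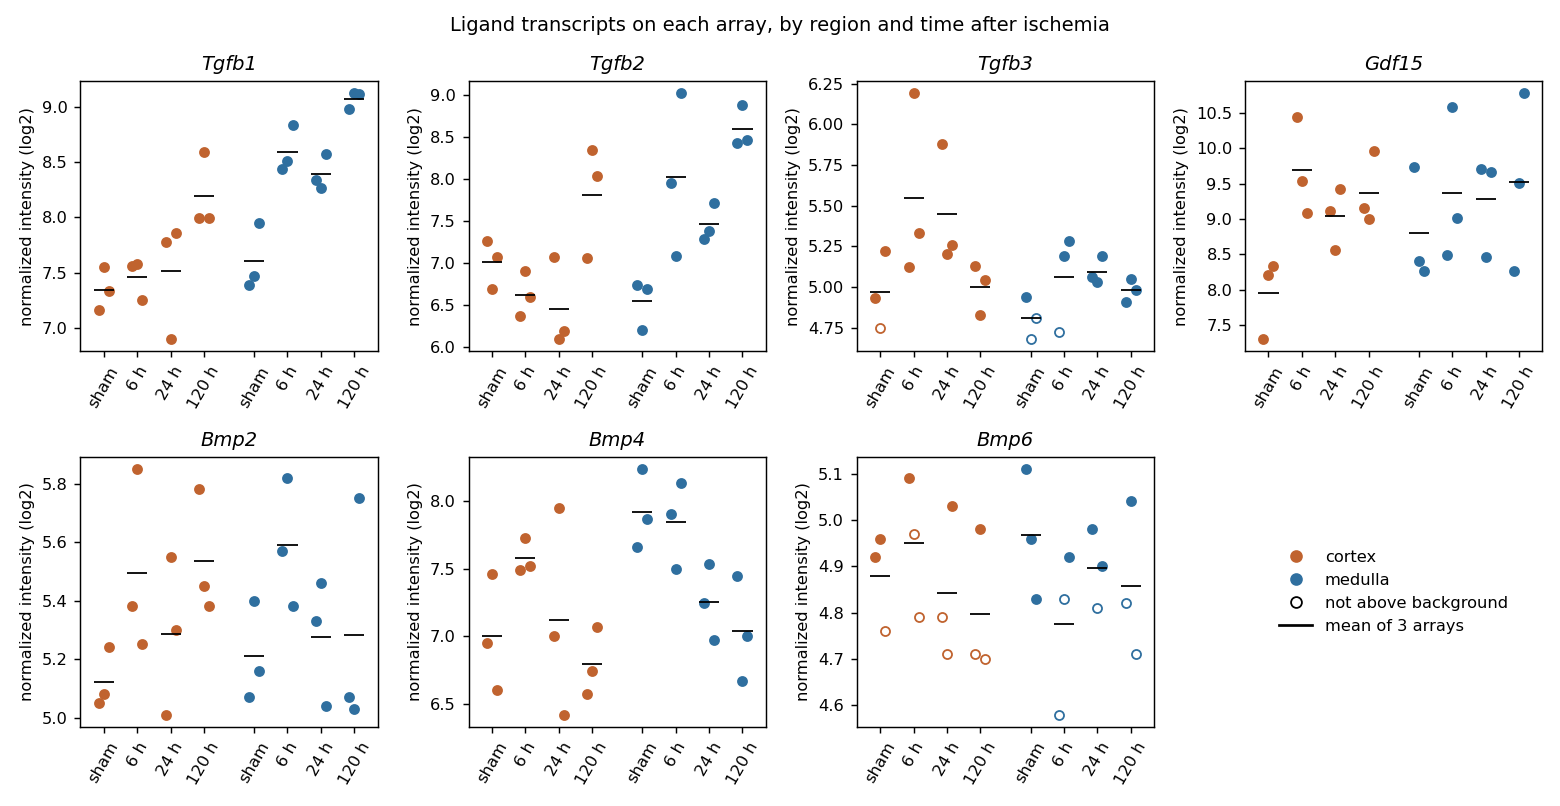
Normalized intensity (log2) of the 7 ligands kept, on each of 24 arrays, by region and time, with the mean of 3 arrays as a bar and open points for arrays not above background. Tgfb1 and Tgfb2 reach their highest means in medulla at 120 h, 9.07 and 8.59. In the other panels most groups next to each other in mean overlap. Injured cortex still lies above sham cortex for Gdf15, and medulla at 24 and 120 h below sham medulla for Bmp4. Each panel has its own axis range.

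Gdf15 had the widest standard error of the 7 ligands in these comparisons, and passed in cortex at 6 h. Sham cortex read 7.30, 8.21 and 8.34, and cortex read 10.44, 9.54 and 9.09 at 6 h, 9.12, 8.56 and 9.43 at 24 h, and 9.15, 9.0 and 9.96 at 120 h. All 9 injured cortex arrays lay above the 3 sham arrays. The differences were 1.74 ± 0.60, 1.09 ± 0.60 and 1.42 ± 0.60, and the first alone passed (3.35-fold, limma adjusted p = 0.0478, against 0.202 and 0.185). Without sham cortex replicate 1 it was 1.42 (adjusted p = 0.188), and without cortex replicate 1 at 6 h 1.36 (adjusted p = 0.182). The call was lost in 26 of 38 alternatives, among them leaving out sham cortex replicate 2 (adjusted p = 0.0716) or 3 (0.0592) or cortex replicate 2 at 6 h (0.111), while the difference stayed between 1.34 and 2.05 in all 38. In medulla Gdf15 read 9.74, 8.40 and 8.26 in sham rats, 8.49, 10.58 and 9.02 at 6 h, 9.71, 8.46 and 9.67 at 24 h, and 8.27, 9.51 and 10.78 at 120 h. These groups overlapped, sham medulla replicate 1 being the highest of its group. The differences of 0.56, 0.48 and 0.72 (each ± 0.60) did not pass (limma adjusted p = 0.515, 0.595 and 0.475). Without sham medulla replicate 1 they were 1.03, 0.95 and 1.19 and did not pass either (adjusted p = 0.258, 0.32 and 0.291). With all arrays, their 95% intervals reached from -0.70 to 1.82, from -0.78 to 1.74 and from -0.54 to 1.98. An increase as large as that of cortex at 6 h, 1.74, lay inside the first and last and at the upper limit of the second.

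Among the BMPs none passed a test against sham with all arrays and the settings used throughout. Bmp4, a ligand of kidney mesenchyme during development, read 7.66, 8.24 and 7.87 in sham medulla, 7.91, 7.50 and 8.14 at 6 h, 7.25, 7.54 and 6.97 at 24 h, and 7.45, 6.67 and 7.0 at 120 h. The 24 and 120 h arrays all lay below sham medulla. The differences at those times were -0.67 ± 0.31 and -0.88 ± 0.31 (limma adjusted p = 0.104 and 0.0619). The 120 h difference passed in 5 of 38 alternatives: with the medulla arrays alone (adjusted p = 0.0423), with array weights (0.0208), without replicate 2 or 3 of cortex at 24 h (0.0278 and 0.0374), and without medulla replicate 1 at 120 h (-1.09, adjusted p = 0.0426). The 24 h difference passed without replicate 2 of cortex at 24 h (adjusted p = 0.0498). In cortex Bmp4 read 6.95, 7.46 and 6.60 in sham rats, 7.49, 7.73 and 7.52 at 6 h, 7.0, 7.95 and 6.42 at 24 h, and 6.57, 6.74 and 7.07 at 120 h, with differences of 0.58, 0.12 and -0.21 that did not pass.

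Bmp2 was above background on every array but dim, with raw intensities of 68 to 116.2. Its differences from sham lay between 0.07 and 0.41, none of which passed, the smallest limma adjusted p being 0.166. Bmp6 was above background on 12 of 24 arrays and lay between 4.58 and 5.11 on the normalized scale. Its differences from sham, between -0.19 and 0.07, did not pass either.

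Inhba and both probes of Inhbb, which encode the beta subunits of activin A and activin B, were above background on 0 of 24 arrays. Raw intensities were 49.5 to 81.9 for Inhba, and 51.5 to 85.4 and 45 to 83.4 for the Inhbb probes. No fold is given for them, since both sides of every comparison lay in the background.

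Against sham cortex 1, 0 and 1 of the 7 ligands passed at 6, 24 and 120 h, where 19.6%, 26.2% and 5.65% of all probes did. Against sham medulla 2, 1 and 2 of 7 passed, where 33.8%, 32.7% and 14.6% of all probes did. Nothing particular to the ligands as a group is read from these shares. Their median difference was 0.37, 0.16 and 0.41 in cortex and 0.38, 0.28 and 0.17 in medulla, beside medians over all probes of 0.00 to 0.04. The median absolute difference over all probes was 0.32, 0.35 and 0.23 in cortex and 0.40, 0.38 and 0.27 in medulla. The ligand medians are therefore not read as a shift of the group.

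**Figure D2:**
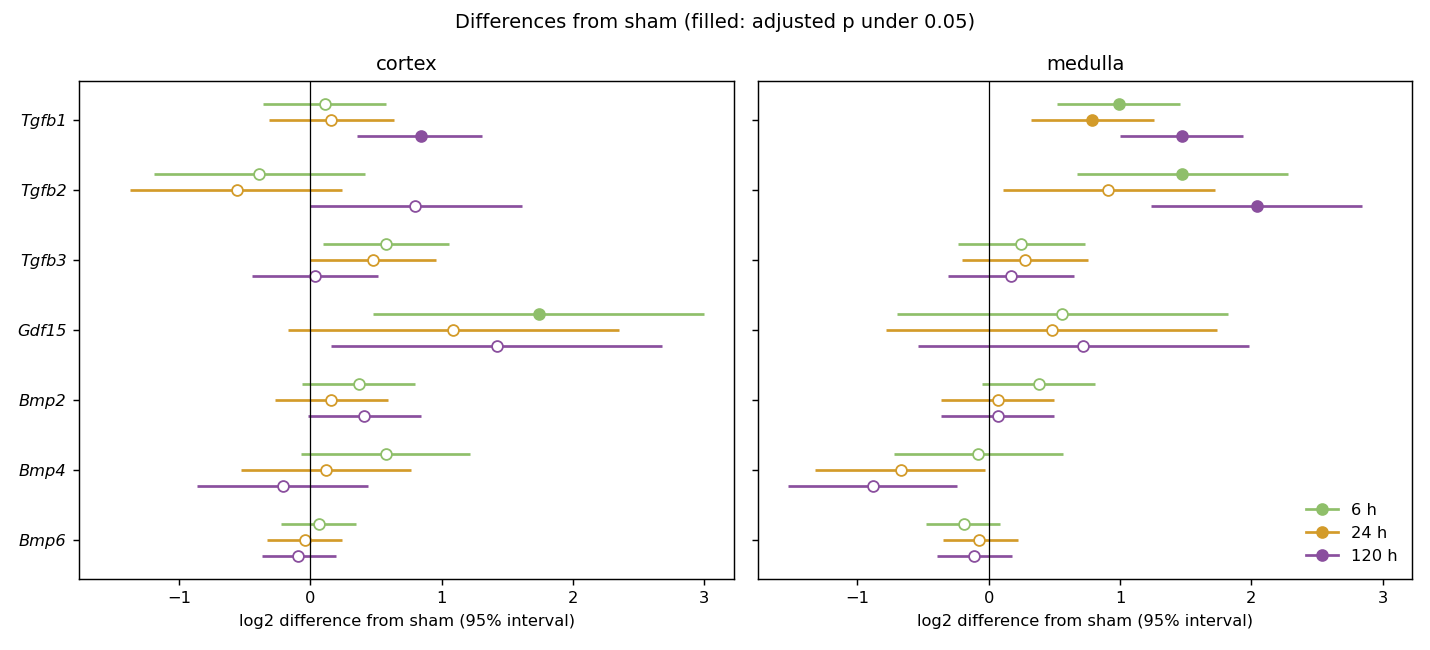
Log2 difference from sham of the same region for each of the 7 ligands at 6, 24 and 120 h, with 95% intervals from the limma fit; filled points passed at an adjusted p under 0.05. The 7 filled points are Tgfb1 at all 3 times and Tgfb2 at 6 and 120 h in medulla, and Tgfb1 at 120 h and Gdf15 at 6 h in cortex.

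Medulla was compared with cortex at each time. In sham rats 0 of 7 ligands passed, where 1.39% of all probes did; 1 ligand, Bmp4, had an unadjusted p under 0.05, with a difference of 0.92 ± 0.31 (limma adjusted p = 0.165). At 6 h Tgfb1 was 1.13 ± 0.23 higher in medulla than in cortex and Tgfb2 1.39 ± 0.38 higher (limma adjusted p = 0.00198 and 0.0172). There, 15.6% of all probes passed. At 24 and 120 h Tgfb1 alone passed, by 0.88 ± 0.23 at both times (limma adjusted p = 0.0139 and 0.0204), where 12.4% and 7.48% of all probes did. Tgfb2 differed by 1.01 and 0.77 at those times and did not pass (adjusted p = 0.0992 and 0.26). The 24 h call of Tgfb1 was lost without cortex replicate 2 (0.57, adjusted p = 0.107), the lowest array of that group, and without medulla replicate 3 (0.79, adjusted p = 0.0611). Leaving out replicate 1 or 3 of cortex at 120 h, or replicate 2 or 3 of medulla at 120 h, gave Tgfb1 differences of 0.78, 0.78, 0.86 and 0.87 with adjusted p-values of 0.118, 0.0986, 0.08 and 0.0723. The 6 h call of Tgfb2 was lost without medulla replicate 3 (0.89, adjusted p = 0.119) or cortex replicate 1 (1.26, adjusted p = 0.0603).

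Whether the response to ischemia itself differed between regions was tested as the medulla change minus the cortex change. For Tgfb1 this was 0.88 ± 0.32, 0.62 ± 0.32 and 0.63 ± 0.32 at 6, 24 and 120 h, and for Tgfb2 1.86 ± 0.54, 1.48 ± 0.54 and 1.24 ± 0.54. With limma none of the 7 ligands passed at any time; 2, 1 and 1 had an unadjusted p under 0.05. The smallest adjusted p was 0.166, for Tgfb2 at 6 h. Over all probes 0.202%, 0.0556% and 0.0139% passed, so a regional difference in the response is not shown here, though the 95% interval for Tgfb2 at 6 h ran from 0.72 to 3.00. Gdf15 had differences of -1.18, -0.61 and -0.70 (each ± 0.85), which were -0.71, -0.14 and -0.23 without sham medulla replicate 1 and did not pass in either case.

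Between successive times 0 of 7 ligands passed in either region with limma, and 0, 2, 0 and 2 had an unadjusted p under 0.05 in cortex (24 against 6 h, 120 against 24 h) and medulla (the same steps). Over all probes 1.5%, 2.34%, 1.4% and 3.91% passed at an adjusted p under 0.05. No share of all probes was computed at an unadjusted p under 0.05. The unadjusted counts of ligands, here and in the regional comparisons above, therefore have no background share to be set against. The 4 steps with an unadjusted p under 0.05 were those of Tgfb1 and Tgfb2 from 24 to 120 h. Tgfb1 moved by 0.67 ± 0.23 in cortex and 0.68 ± 0.23 in medulla (adjusted p = 0.13 and 0.1), and Tgfb2 by 1.37 ± 0.38 and 1.13 ± 0.38 (adjusted p = 0.0667 and 0.11).

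Ordered by group mean, Tgfb1 was highest in medulla at 120 h (9.07 ± 0.08, SD, n = 3), then in medulla at 6 h (8.59 ± 0.21) and 24 h (8.39 ± 0.16), and in cortex at 120 h (8.19 ± 0.35). Medulla at 120 h did not overlap the next group, while the following 3 groups overlapped their neighbours. The remaining 4 groups, sham medulla (7.60 ± 0.30), cortex at 24 h (7.51 ± 0.54) and 6 h (7.46 ± 0.19) and sham cortex (7.35 ± 0.19), overlapped in turn and lay below cortex at 120 h. For Tgfb2 the order was medulla at 120 h (8.59 ± 0.26), medulla at 6 h, cortex at 120 h (7.82 ± 0.67) and medulla at 24 h (7.46 ± 0.23), each overlapping the next, then sham cortex (7.01 ± 0.29), which lay below the fourth group. Cortex at 6 h (6.63 ± 0.27), sham medulla (6.55 ± 0.30) and cortex at 24 h (6.45 ± 0.54) followed, each overlapping its neighbour. For Gdf15, whose means ran from 7.95 ± 0.57 in sham cortex to 9.69 ± 0.68 in cortex at 6 h, and for Bmp4, from 6.79 ± 0.25 in cortex at 120 h to 7.92 ± 0.29 in sham medulla, all neighbours in the order overlapped.

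Over the 24 arrays Tgfb1 and Tgfb2 had a Pearson correlation of 0.833, and all other pairs of the 7 ligands lay between -0.352 and 0.393. The arrays share the 8 group differences, so these are descriptions. The genes most like Tgfb1 were Marcksl1 (r = 0.947), Ctsk, the protease cathepsin K (0.923), and Gpc3, the cell surface proteoglycan glypican 3 (0.92). Those most like Tgfb2 were A2m, the protease inhibitor alpha-2-macroglobulin (0.857), Prr16 (0.832) and Col18a1, a basement membrane collagen (0.808). Those most like Gdf15 were Ppp1r15a, which dephosphorylates the initiation factor eIF2 alpha together with a phosphatase (0.811), Plekhf1 (0.78) and Atf3, a stress-induced transcription factor (0.773).

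Marker levels of several cell types also differed between sham and injured medulla. Proximal tubule markers summed to 6970 to 29200 in sham medulla, 651 to 2540 at 6 h, 729 to 2880 at 24 h and 3740 to 8190 at 120 h, with 6 of 7 listed markers measured. In cortex they summed to 37300 to 42200 in sham rats and 17600 to 33800 after injury. Macrophage markers, of which 5 of 8 were measured and all were detected on every array, summed to 1290 to 1720 in sham medulla, 3620 to 5060 at 6 h, 4060 to 6560 at 24 h and 3880 to 4770 at 120 h. They summed to 797 to 1390 in sham cortex, and to 1310 to 2900, 2270 to 3860 and 2050 to 5000 in cortex at 6, 24 and 120 h. In cortex 3, 4 and 3 of the 5 rose at those times, where 8.87%, 12.6% and 2.45% of all probes passed as higher than sham. Fibroblast and pericyte markers, 5 of 6 measured, summed to 2650 to 2710 in sham medulla. At 6, 24 and 120 h they summed to 2300 to 5870, 3320 to 3550 and 5240 to 8060. Endothelial markers, 4 of 6 measured, summed to 2680 to 4210 in sham medulla. At the 3 times they summed to 6330 to 8690, 4820 to 7760 and 4280 to 6600. Collecting duct markers, all 6 measured, summed to 1800 to 6740 in sham medulla. They then summed to 6120 to 8370, 3100 to 12600 and 10200 to 19600. Lymphocyte markers, 4 of 5 measured, summed to 139 to 176 in sham medulla. After injury they summed to 242 to 302, 226 to 386 and 240 to 384. Injured tubule markers, 3 of 5 measured, summed to 847 to 1120 in sham medulla, 6150 to 10500 at 6 h, 5010 to 17000 at 24 h and 10000 to 12600 at 120 h, and in cortex to 646 to 743 in sham rats and 1520 to 10300 after injury. Distal convoluted tubule markers, 2 of 4 measured, summed to 676 to 3340 in sham medulla and 168 to 623 after injury. The part of fibroblast, endothelial, collecting duct, lymphocyte, injured tubule and distal tubule markers in the ligand results was not tested.

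For 2 of these lists the mean marker level was added to the fit, a step chosen after seeing the data. With the macrophage markers, the Tgfb1 differences from sham medulla were 0.15 ± 0.30, -0.09 ± 0.31 and 0.59 ± 0.31, its difference in cortex at 120 h was 0.06 ± 0.29, and none passed (limma adjusted p = 0.84, 0.923, 0.52 and 0.999). Those of Tgfb2 in medulla were 1.31 ± 0.65, 0.74 ± 0.67 and 1.87 ± 0.68, none of which passed (adjusted p = 0.306, 0.616 and 0.42). With the proximal tubule markers the Tgfb1 differences were 0.85 ± 0.42, 0.65 ± 0.43 and 1.39 ± 0.32 and those of Tgfb2 1.20 ± 0.72, 0.64 ± 0.73 and 1.87 ± 0.54, again without a call (adjusted p from 0.0548 to 0.819). Calls against sham over all probes fell as well. In medulla at 6, 24 and 120 h they fell to 101, 66 and 0 with the macrophage markers. With the proximal tubule markers they fell to 10, 17 and 68. In cortex at 120 h they fell to 3 with the macrophage and 446 with the proximal tubule markers. Where 0 probes passed, no ligand could keep a call, so the lost calls say nothing particular about the ligands there. A term that moves with the groups takes up part of their difference, whatever its source.

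**Figure D3:**
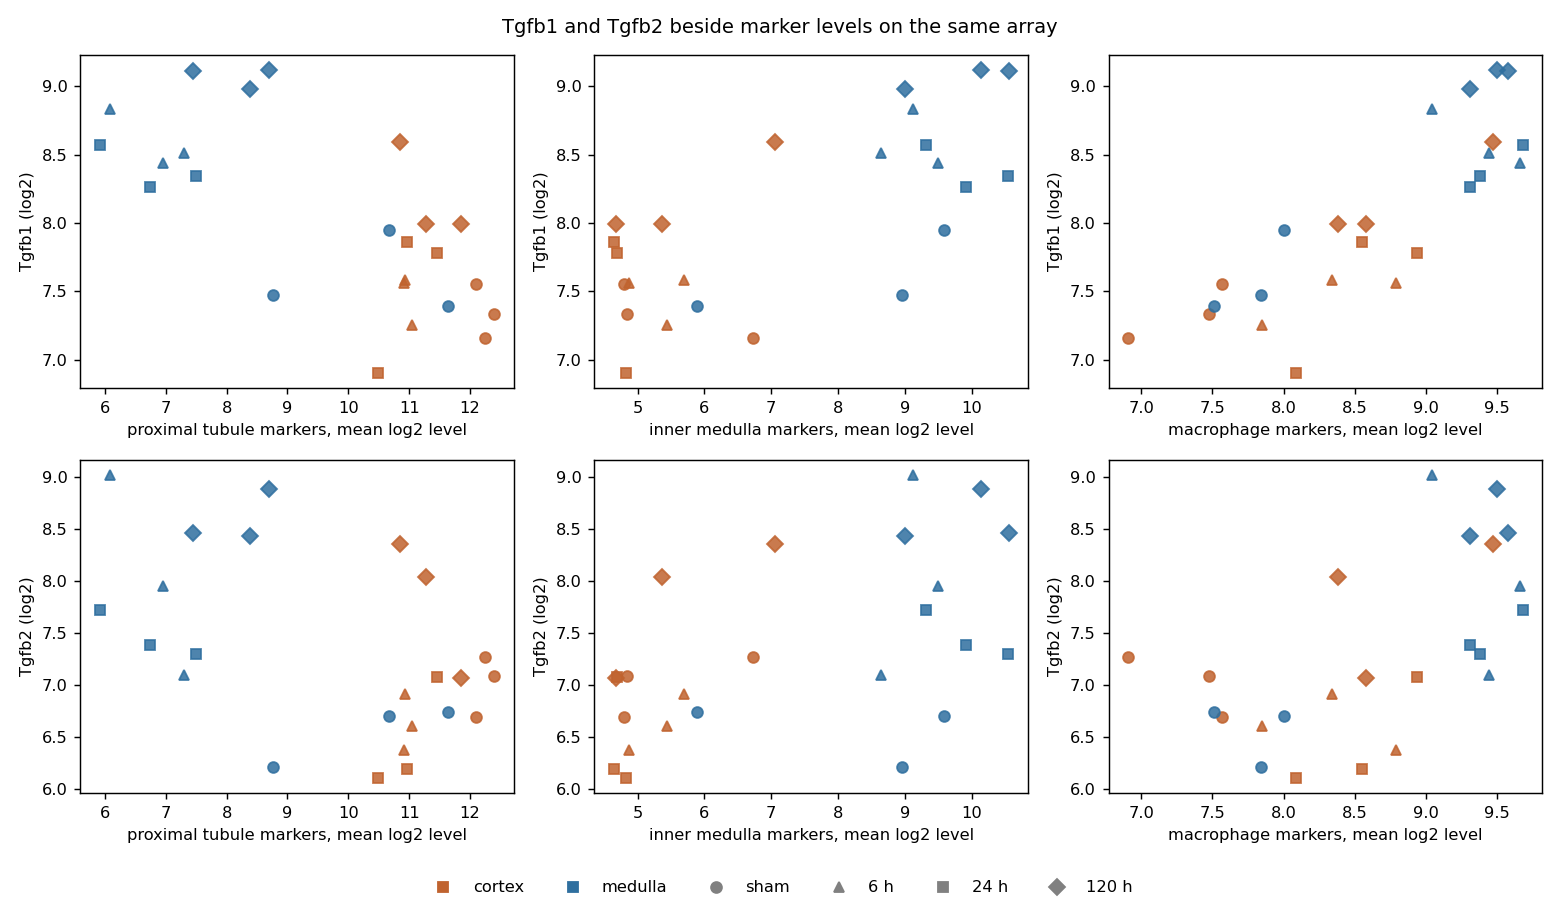
Normalized Tgfb1 (top) and Tgfb2 (bottom) intensity on each of 24 arrays (log2) against the mean log2 level of proximal tubule, inner medulla and macrophage markers on the same array, coloured by region and shaped by time. Sham medulla replicate 1 lies among cortex arrays on the first 2 axes (11.64 and 5.89), and injured medulla arrays lie to the right on the macrophage axis.

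The rest of the pathway was read from lists of genes, 1 probe per gene. Over all probes, 8.87% passed as higher and 10.8% as lower in cortex at 6 h, 12.6% and 13.6% at 24 h, and 2.45% and 3.2% at 120 h. In medulla 17.3% passed as higher and 16.6% as lower at 6 h, 17.2% and 15.5% at 24 h, and 7.69% and 6.88% at 120 h. Counts below are given in the order 6, 24 and 120 h.

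Of 8 measured genes among 21 other ligands of the family, 1, 0 and 0 rose and 1, 1 and 1 fell in cortex, and 1, 0 and 0 rose and 0 fell in medulla at any time. Bmp3 rose by 0.59 ± 0.17 in cortex at 6 h and Gdf10 by 0.52 ± 0.18 in medulla at 6 h (limma adjusted p = 0.0197 and 0.0294). The probe of Bmp15, an oocyte ligand, was lower in cortex at each time (-1.15, -1.31 and -1.02, each ± 0.23). At 24 h it was not above background on any cortex array, so that it was at least 2.25-fold lower than sham there. The list medians were 0.28, -0.03 and -0.11 in cortex and 0.11, -0.10 and -0.25 in medulla.

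Of 12 measured receptor genes among 15, 1, 1 and 0 rose and 2, 2 and 1 fell in cortex, and 2, 2 and 0 rose and 3, 4 and 2 fell in medulla. Acvr1, the type I receptor ALK2 for BMPs, fell in both regions at 6 and 24 h, by -1.40 ± 0.39 and -1.54 ± 0.39 in cortex and -1.99 ± 0.39 and -1.83 ± 0.39 in medulla. Acvr1c, the type I receptor ALK7, fell in medulla at each time (-2.21, -2.28 and -2.33, each ± 0.51). The mean of Acvr1c was 8.42 in sham medulla and 6.74 in sham cortex. Adipocyte markers, 2 of 4 measured, summed to 153, 368 and 1590 on the sham medulla arrays. They summed to 77 to 107 in sham cortex and to 203 to 280, 136 to 236 and 193 to 353 in injured medulla. The part of fat tissue in the Acvr1c result was not tested. Tgfbr3, the co-receptor betaglycan, fell in cortex by -0.93, -1.42 and -1.09 (each ± 0.31, limma adjusted p = 0.0411, 0.00229 and 0.0435), and in medulla at 6 and 24 h. Tgfbr1, the type I receptor for TGF-beta, fell in medulla at 24 and 120 h by -0.63 ± 0.21 and -0.68 ± 0.21. Acvr2b, an activin type II receptor, rose in both regions at 6 and 24 h, by 0.59 to 0.84, and Bmpr1b in medulla by 1.05 ± 0.16 and 0.87 ± 0.16. Without sham medulla replicate 1 the medulla counts were 1, 1 and 0 higher and 2, 2 and 1 lower: Acvr1, Acvr1c and Bmpr1b passed, and Tgfbr3 (-0.71 and -0.93, adjusted p = 0.14 and 0.0614) and Tgfbr1 (-0.49 and -0.54, adjusted p = 0.141 and 0.17) did not, nor did Acvr2b (0.52 and 0.38, adjusted p = 0.0695 and 0.202). The receptor medians lay between -0.18 and 0.13. Tgfbr2, the type II receptor for TGF-beta, had no probe in the annotation.

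Smad genes showed 1 call among 6 measured of 8, Smad1, a BMP signal transducer, which fell by -0.64 ± 0.19 in cortex at 6 h (limma adjusted p = 0.0258). The list medians were -0.34, -0.32 and -0.02 in cortex and 0.16, 0.17 and 0.26 in medulla.

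The list of extracellular inhibitors and activators, 16 measured of 25, had 7, 7 and 7 genes higher and 2, 2 and 1 lower in medulla, and 0, 4 and 3 higher and 1, 2 and 1 lower in cortex. Its medians were 0.46, 0.64 and 0.98 in medulla and -0.01, 0.01 and 0.22 in cortex. Bgn, the matrix proteoglycan biglycan, which binds TGF-beta, rose in medulla by 1.94, 2.23 and 1.98 (each ± 0.30). Grem1, the BMP antagonist gremlin 1, rose there by 1.77, 2.02 and 2.31 (each ± 0.44), and in cortex at 120 h by 1.56 ± 0.44. Ltbp2, a relative of the latent TGF-beta binding proteins, rose most at 120 h, by 2.47 ± 0.28 in medulla and 2.21 ± 0.28 in cortex (limma adjusted p = 8.17e-05 and 0.000154). Fst, the activin-binding follistatin, rose by 2.36 ± 0.85 in medulla at 6 h (adjusted p = 0.0383), a difference of 1.37 (adjusted p = 0.241) without sham medulla replicate 1. Fstl3, a follistatin relative, rose in medulla at 6 and 24 h (1.89 and 1.26, each ± 0.38) and in cortex at 24 h (1.44 ± 0.38). Chrd, the BMP antagonist chordin, fell in medulla by -2.58, -2.59 and -1.20 (each ± 0.31, adjusted p = 1.83e-05, 1.67e-05 and 0.0158), and without that array by -2.07, -2.08 and -0.69, of which the last did not pass (adjusted p = 0.0887). Twsg1, a chordin partner, fell in cortex at each time (-1.13, -1.26 and -1.21, each ± 0.27) and in medulla at 6 and 24 h. Ltbp4, a latent TGF-beta binding protein, rose in cortex and medulla at 24 h (0.75 and 0.78, each ± 0.22) and 120 h (0.98 and 1.17). Dcn, the TGF-beta-binding proteoglycan decorin, rose in medulla at 120 h by 1.33 ± 0.32. Nbl1, a BMP antagonist, fell by -0.80 ± 0.26 in cortex at 24 h and rose by 0.86 ± 0.26 in medulla at 120 h. Without sham medulla replicate 1 this list had 4, 2 and 5 genes higher and 2, 2 and 0 lower in medulla. Fstl3 at 24 h (0.81, limma adjusted p = 0.12), Ltbp4 at 24 h (0.61, adjusted p = 0.0743) and Nbl1 at 120 h (0.64, adjusted p = 0.164) were among the calls lost.

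Genes known to respond to TGF-beta, 10 measured, had 2, 6 and 4 members higher and 0 lower in cortex, and 3, 4 and 6 higher and 1, 1 and 0 lower in medulla. Their medians were 0.45, 1.37 and 1.45 in cortex and 0.67, 1.06 and 1.62 in medulla. Timp1, an inhibitor of matrix metalloproteinases, rose in medulla by 4.49, 3.77 and 2.91 (each ± 0.79) and in cortex by 2.72 and 4.12 at 6 and 24 h. Tgif1, a repressor of Smad-driven transcription, rose in all 6 comparisons, by 1.48 to 1.81. The collagen genes Col1a1 and Col1a2 rose in cortex at 24 h by 2.14 ± 0.60 and 1.26 ± 0.33, in cortex at 120 h by 2.29 ± 0.60 and 1.17 ± 0.33, and in medulla at 120 h by 2.53 ± 0.60 and 1.66 ± 0.33. Col3a1 rose in medulla at 120 h by 2.45 ± 0.52, and Fn1, fibronectin, in medulla at each time (1.53, 1.99 and 2.15, each ± 0.44) and in cortex at 24 and 120 h (1.70 and 1.72, each ± 0.44). Tgfbi, a matrix protein named for its induction by TGF-beta, fell in medulla at 6 and 24 h by -1.59 ± 0.55 and -1.84 ± 0.55. Ccn2, connective tissue growth factor, another such gene, passed in none of the 6 comparisons, its group means lying between 12.76 and 13.16. Without sham medulla replicate 1 the medulla counts were 2, 3 and 5 higher and 0, 1 and 0 lower. Timp1 at 120 h (2.81, limma adjusted p = 0.0678), Fn1 at 6 h (1.07, adjusted p = 0.082), Col1a2 at 24 h (0.82, adjusted p = 0.109) and Tgfbi at 6 h (-1.61, adjusted p = 0.0671) were the calls lost. Col1a1 and Col3a1 are also in the fibroblast marker list, whose summed level was given above.

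Genes known to respond to BMPs, 7 measured of 9, had 0 members higher in any comparison with sham. Id2, an inhibitor of basic helix-loop-helix factors, fell in both regions at 6 and 24 h, by -0.62 ± 0.20 and -0.59 ± 0.20 in cortex and -0.76 ± 0.20 and -1.19 ± 0.20 in medulla, and was the only call of that list.

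Stress genes often measured beside Gdf15, 12 measured of 13, had 6, 3 and 2 members higher in cortex and 5, 3 and 3 in medulla, and 0 lower. Atf3 rose by 2.89 ± 0.63 and 2.07 ± 0.63 in cortex at 6 and 24 h and by 2.73, 2.31 and 1.94 (each ± 0.63) in medulla. Asns, asparagine synthetase, a target of ATF4, rose in all 6 comparisons by 1.06 to 1.53, and Phlda3, a p53 target, by 1.02 to 1.89. Ddit3, the stress factor CHOP, rose at 6 h in both regions (1.36 and 1.65, each ± 0.40). Chac1, a glutathione-degrading enzyme, was at least 1.84-fold higher in cortex at 6 h than in sham cortex, where no array detected it. Without sham medulla replicate 1 the medulla counts were 5, 1 and 0, the calls lost being Asns (1.01 and 1.20, limma adjusted p = 0.0697 and 0.0673) and Phlda3 (0.67 and 0.87, adjusted p = 0.0962 and 0.0703) at 24 and 120 h, and Atf3 at 120 h (2.33, adjusted p = 0.0507).

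**Figure D4:**
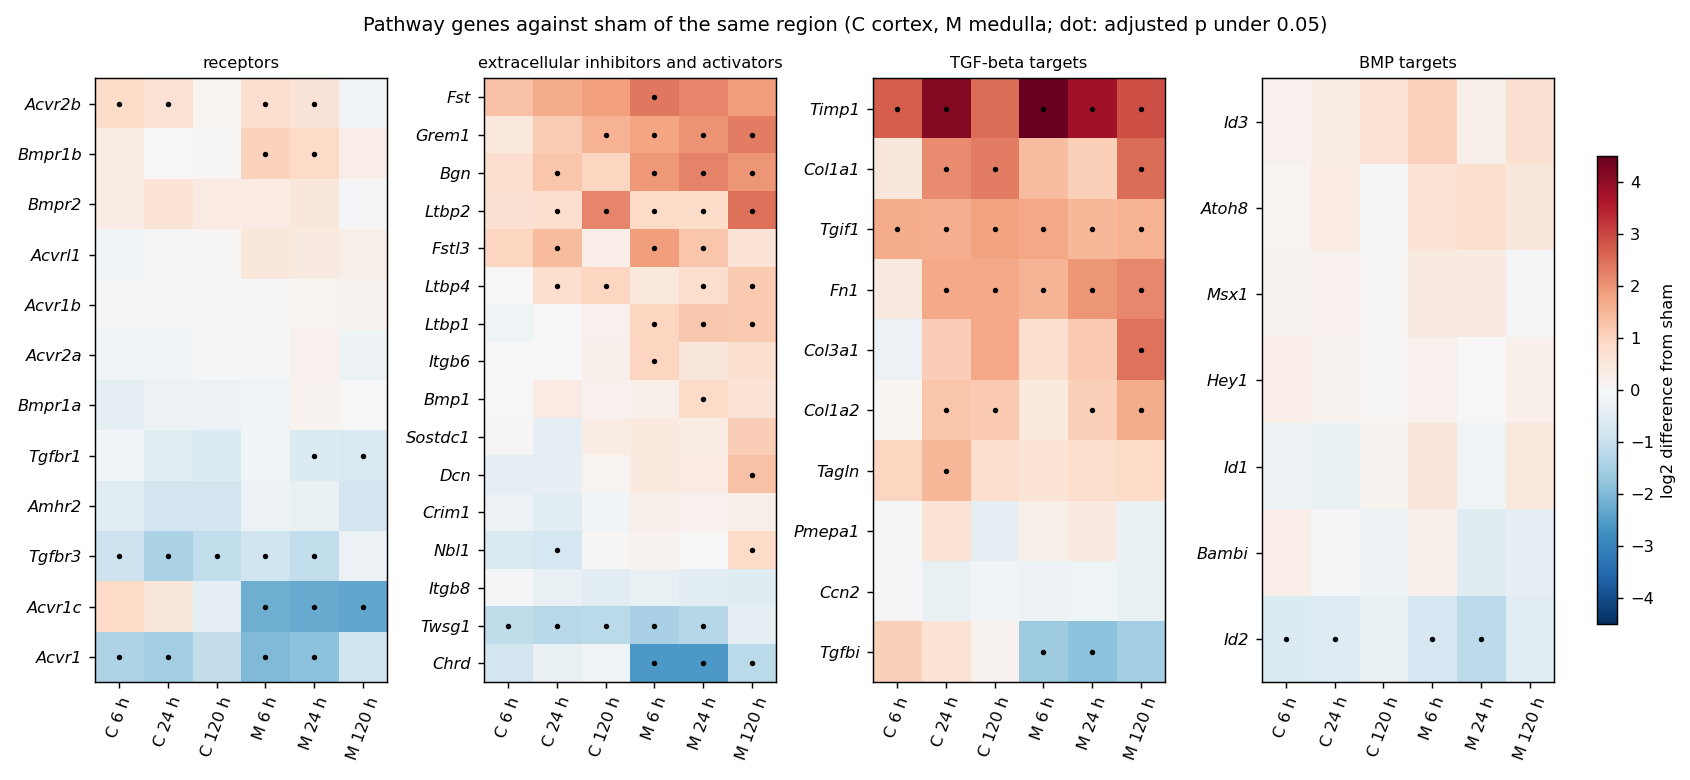
Log2 difference from sham of the same region for the measured receptors, extracellular inhibitors and activators, TGF-beta targets and BMP targets (rows) at 6, 24 and 120 h in cortex and medulla (columns), with a dot where the adjusted p was under 0.05. Red cells gather among the inhibitors and activators in medulla and among the TGF-beta targets in both regions, and Chrd, Acvr1, Acvr1c and Tgfbi stand out in blue in medulla.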

How the data were processed

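The authors deposited intensity values, 1 per probe and array, that were not normalized, per the file headers. Beside each they deposited a detection value as a fraction between 0 and 1 that rises with intensity, and 1 minus this value served as detection p. The deposited series table holds the authors' log2 values, used as an alternative only; the method behind them is not stated in the sources read.

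Values were normalized with neqc of limma 3.58.1 in R 4.3.3 (background correction from the detection p, offset 16, quantile normalization, log2). The filter kept the 14390 of 22523 probes that 3 or more arrays detected (p under 0.05). A model of 8 group means was fitted with lmFit and eBayes (16 residual and 3.34 prior degrees of freedom) and 17 comparisons were tested, with Benjamini-Hochberg adjustment within each and a threshold of 0.05. An exact permutation test of 3 against 3 arrays cannot go below 0.1. The procedure was tested on simulated data. Annotation gave 1 symbol for 13793 probes and none for 8730. For a gene undetected in one whole group, the brighter mean was set against the mean, per array, of the higher of the lowest detected signal and the probe's own.

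The ligands, pathway lists and markers were chosen with earlier results of these data known. Named pathway genes were called members with the largest changes, at most 4 per list and comparison, and the 3 genes most correlated with each called ligand. Ccn2 and Chac1 fell outside this rule and were chosen after their values were seen. Slide and scan batches were not given and could not be modelled, and no 2 arrays were identical. Deviations from group means were compared between arrays of cortex and medulla with the same time and number: r lay between -0.258 and 0.398, and 3 of 12 pairs, all at 24 h, were over 0.1. The number was therefore used as a block only in alternatives. Other alternatives covered normalization, filters, the arrays fitted, array weights, marker covariates and each array left out.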

Additional observations from a re-analysis of the deposited data

How the results depend on the processing

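Of 11 called ligand differences, all kept their direction under 15 alternatives other than leaving out an array, except Tgfb1 in medulla at 24 h, which was -0.09 with macrophage markers as covariate. Over 1590 ligand values under those alternatives, 1541 stayed on their side of the threshold, 35 lost a call and 13 gained one. The remaining 1 was a called value that changed direction. Changes of direction among uncalled values were counted as staying, such as Tgfb1 in cortex at 6 h, from 0.11 to -0.42 with macrophage markers as covariate. With an array left out, 2811 of 2856 stayed, 31 lost and 14 gained a call. The call of Gdf15 in cortex at 6 h was lost in 26 of its 38 alternatives, and that of Tgfb1 in cortex at 120 h in 9. The 2 ligand calls in cortex became 1 with an offset of 50, quantile normalization alone, median scaling, the authors' series values or the arrays of the region alone. They became 0 without a filter on dim probes, with only the groups compared and with either marker covariate. With array weights they became 4, and with an array left out 0 to 2. Of these 2 calls, Tgfb1 at 120 h was lost with median scaling and with the arrays of the region alone. Gdf15 at 6 h was lost with an offset of 50, quantile normalization alone and the authors' series values. The 5 ligand calls in medulla became 0 with either covariate and 4 to 7 with an array left out. The 4 calls of medulla against cortex became 2 with only the groups compared, 0 with either covariate, 6 with array weights (Tgfb2 and Tgfb3 at 24 h added) and 3 to 4 with an array left out. The 0 calls among differences between regional responses became 0 to 1 with an array left out. That call was Tgfb2 at 6 h without medulla replicate 2 (2.32, limma adjusted p = 0.0359). The 0 calls between successive times became 3 with array weights, 1 with macrophage markers as covariate (Tgfb1 in medulla, 0.68, adjusted p = 0.0388) and 0 to 1 with an array left out. The replicate number as a block left 1 call in cortex, 5 in medulla and 4 of medulla against cortex. At 24 h, where all 3 same-numbered pairs correlated, a block within those groups alone left Tgfb1 at 0.88 in medulla against cortex (adjusted p = 0.0349). The covariates and that block were added after seeing the data, and the cause of these shifts was not tested. With the proximal tubule markers 0, 1 and 0 of all probes passed in medulla against cortex at 6, 24 and 120 h. With the macrophage markers 0 of all probes passed against sham in medulla at 120 h. Median scaling moved the split of all probes called higher and lower from 1276 and 1550 to 913 and 1512 in cortex at 6 h, from 1811 and 1955 to 2134 and 1606 at 24 h, from 2473 and 2235 to 2885 and 1800 in medulla at 24 h, and from 1106 and 990 to 1319 and 747 at 120 h. A second probe could give no value, since neither Inhbb probe was kept. Signal over background limits Tgfb3, Bmp2, Bmp6 and the activin subunits.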
